A study of Homo sapiens with 6 samples.

Results

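PTPN13 and the 4 other non-receptor tyrosine phosphatases that carry a FERM domain, PTPN3, PTPN4, PTPN14 and PTPN21, were followed across 6 one-colour Agilent arrays of A673 cells. Probes were taken when their transcript accession belonged to one of these 5 genes, and each was kept separately. This gave 8 probes of the 50599 gene probes on the array: 1 for PTPN13, 2 for PTPN3, 1 for PTPN4, 3 for PTPN14 and 1 for PTPN21. PTPN13 was chosen by its measured values, the fall of its own signal between the groups compared here, selected on this contrast among the probes with the largest falls, so its values are a description and carry no test. The other 4 genes were taken for their domains, with earlier results of these arrays known.

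A673 is an Ewing sarcoma cell line driven by the fusion protein EWS/FLI1. Both groups descend from A673/TR, which expresses the tetracycline repressor, and were infected with a lentiviral vector that was either empty (A673/TR/empty, the control, 3 arrays) or carried the cDNA of the propeptide of lysyl oxidase (A673/TR/LOX-PP, 3 arrays), after which stable clones were selected. The labels describe 3 independent experiments per group and doxycycline for 72 h, at 1 µM. They repeat this treatment for all 6 samples while naming it in the sample source of the A673/TR/LOX-PP arrays alone, so whether the control cells received the drug is not settled. Which clone was hybridised is not stated either, and the selected line and the construct it carries cannot be told apart.

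Non-receptor tyrosine phosphatases remove phosphate from tyrosine residues of cytoplasmic proteins. In this branch of the family the catalytic domain is joined to a FERM domain, the module named after band 4.1, ezrin, radixin and moesin, which places proteins at the inner face of the plasma membrane and at the actin cortex. PTPN13, also called FAP-1 or PTPL1, is the largest of them, carries several PDZ domains between its FERM and catalytic domains, binds the tail of the death receptor FAS, and is known as a gene activated by EWS/FLI1. PTPN3 and PTPN4 have a single PDZ domain. PTPN14 and PTPN21 have none, and PTPN14 is known as a binder of the Hippo pathway protein YAP1.

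The letters just before the start of these genes are shown because a protein of the ETS family, to which FLI1 belongs, binds sites with the core GGAA. The windows hold the 250 bases before the annotated start in RefSeq on GRCh38.p14, written 5′ to 3′ on the strand of the gene, with GGAA and its reverse complement TTCC in capitals. PTPN13 lies on the plus strand of chromosome 4 and its window is chr4:86594065-86594314. PTPN21 lies on the minus strand of chromosome 14 and its window is chr14:88555008-88555257. The window of PTPN14, on the minus strand of chromosome 1, is chr1:214551603-214551852, and that of PTPN4, on the plus strand of chromosome 2, is chr2:119759672-119759921.
PTPN13: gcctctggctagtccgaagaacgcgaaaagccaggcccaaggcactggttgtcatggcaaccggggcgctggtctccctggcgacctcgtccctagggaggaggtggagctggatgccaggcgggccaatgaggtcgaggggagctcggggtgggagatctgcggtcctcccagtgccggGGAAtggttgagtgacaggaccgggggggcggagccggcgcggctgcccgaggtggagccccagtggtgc
PTPN21: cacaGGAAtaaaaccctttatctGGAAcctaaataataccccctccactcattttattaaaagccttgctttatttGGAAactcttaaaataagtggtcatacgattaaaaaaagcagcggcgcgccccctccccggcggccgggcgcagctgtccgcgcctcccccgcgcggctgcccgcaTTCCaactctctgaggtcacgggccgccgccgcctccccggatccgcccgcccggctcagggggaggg
PTPN14: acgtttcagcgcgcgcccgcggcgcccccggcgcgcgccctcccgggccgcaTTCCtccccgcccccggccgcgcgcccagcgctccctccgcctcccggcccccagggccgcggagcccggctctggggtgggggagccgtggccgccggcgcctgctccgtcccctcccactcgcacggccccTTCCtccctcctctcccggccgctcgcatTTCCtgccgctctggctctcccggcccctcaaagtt
PTPN4: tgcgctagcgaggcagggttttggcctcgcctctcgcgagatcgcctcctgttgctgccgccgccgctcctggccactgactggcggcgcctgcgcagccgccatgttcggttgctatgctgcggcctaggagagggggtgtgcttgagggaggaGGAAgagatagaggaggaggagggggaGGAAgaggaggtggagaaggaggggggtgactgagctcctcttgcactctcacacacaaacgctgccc
The PTPN13 window holds 1 GGAA on either strand, that of PTPN4 holds 2, that of PTPN14 holds 3 and that of PTPN21 holds 4. The motif is common, since 92.7% of the 35116 windows of this length in the table hold at least 1 and the median window holds 3. At least 4, as before PTPN21, are in 34.3% of windows. The tandem repeat GGAAGGAA, present on either strand in 3.06% of all windows, is in none of these 4, which says nothing of more distant sequence. All 4 windows have more G or C than the median of 58.0% over all windows, at 69.2% for PTPN13, 59.2% for PTPN21, 80.0% for PTPN14 and 65.2% for PTPN4, and the PTPN14 window has 36 CG dinucleotides against a median of 11. PTPN3 has 4 annotated starts in the table, with 1 to 4 GGAA each, and none of its windows is shown because the arrays do not say which start was used.

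Signals are given as log2 of the background-corrected spot signal minus the 75th percentile of the same array, so that 0 is the level of a probe at that percentile. Between 56.9% and 74.8% of gene spots were well above background, none was saturated, and the LOX-PP replicate 1 array was alone on its slide and scan. LOX itself was not higher on the arrays labelled A673/TR/LOX-PP (-0.70 ± 0.58, SD, n = 3) than on the control arrays (0.13 ± 0.22, SD, n = 3), with an adjusted p of 0.216 from limma, and the place of its probe relative to the propeptide cDNA is not known. Directions therefore rest on the labels. All 13 Ewing sarcoma markers examined were well above background on all 6 arrays. Of these, 0 passed the threshold, against 5.67% of all tested probes, and 1 had an unadjusted p under 0.05, against 21.3%. On so few genes this does not show that the markers were unchanged. Of 6 epithelial markers, each read by its brightest probe, CDH1 and KRT5 were not well above background on any array. KRT14 and CLDN4 were higher on the LOX-PP arrays, by 5.13 and 2.08 (log2, adjusted p = 0.000141 and 0.0257, limma). The other KRT14 probes did not pass: A_21_P0011633 gave 2.07 (adjusted p = 0.0526, limma), and A_21_P0011517 was dim in both groups (-5.37 and -5.20) and not tested. EPCAM (0.49, adjusted p = 0.263) and KRT19 (-1.01, adjusted p = 0.0517, groups not overlapping) did not pass. The summed level of this list, in multiples of the 75th percentile, was 0.412 to 0.558 in control cells and 4.68 to 5.79 in LOX-PP cells, most of the latter from KRT14. The sum over 5 leukocyte markers was 0.809 to 1.13 and 0.882 to 1.57, with none of the 5 past the threshold in limma or at an unadjusted p under 0.05. That over 7 fibroblast markers was 69.9 to 84.9 and 81.1 to 101, with LUM alone past the threshold (lower by 2.42, adjusted p = 0.0191, limma). LUM was dim, well above background on 2 control arrays and 1 LOX-PP array, so the size of its change has little precision. Of the 4 epithelial markers tested 50% passed, and of the 6 fibroblast markers tested 16.7%, against 5.67% of all tested probes. These shares rest on very few genes. The part of these markers in the results below was not tested.

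The PTPN13 probe (A_23_P18493) was bright in control cells and could not be told from background on any LOX-PP array. Its level was 3.89, 4.01 and 3.63 on control replicates 1, 2 and 3, and -8.34, -5.85 and -6.55 on LOX-PP replicates 1, 2 and 3. The corrected signals behind these levels were 113587, 100799 and 76694 in control cells and 8.80, 108 and 35.5 in the LOX-PP cells. The groups were far from overlapping, and the 3 control arrays lay close together (3.84 ± 0.195, SD, n = 3) while the LOX-PP values (-6.91 ± 1.28, SD, n = 3) had no order, since all 3 spots were flagged as not well above background.

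What the array can give for PTPN13 is a bound. The lowest signal well above background on each LOX-PP array (34.1, 483 and 149) was put in place of the unmeasured spot. On that basis the transcript was at least 415-fold lower in LOX-PP cells, a log2 difference of -8.70 or lower before any centring. The bound depended on the processing, at 218-fold with normexp background correction and 186-fold with a common floor under all arrays. It also moved with the dim arrays: it was 244-fold without LOX-PP replicate 1, whose background was lowest, and 619-fold without LOX-PP replicate 2, whose background was highest. The tested set was 32609 probes, each of them flagged as well above background on 3 or more arrays. Among them the PTPN13 probe had the largest fitted fall, a rank that follows from how it was chosen.

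The uncorrected spots gave the same picture without any correction by the software. The median pixel signal of the PTPN13 spot was 88, 641.5 and 214 on the LOX-PP arrays, where the negative control spots ran from 48 to 97, from 402 to 827 and from 146 to 312. So PTPN13 lay inside the range of the negative controls on each LOX-PP array, above 94.2%, 69.5% and 61.9% of them. On the control arrays the same spot read 107703, 98649 and 72828 against a brightest negative control of 669.5. Differences below the level of the negative controls cannot be measured, and the array holds 1 probe for the gene, so other transcript forms were not seen.

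**Figure D1:**
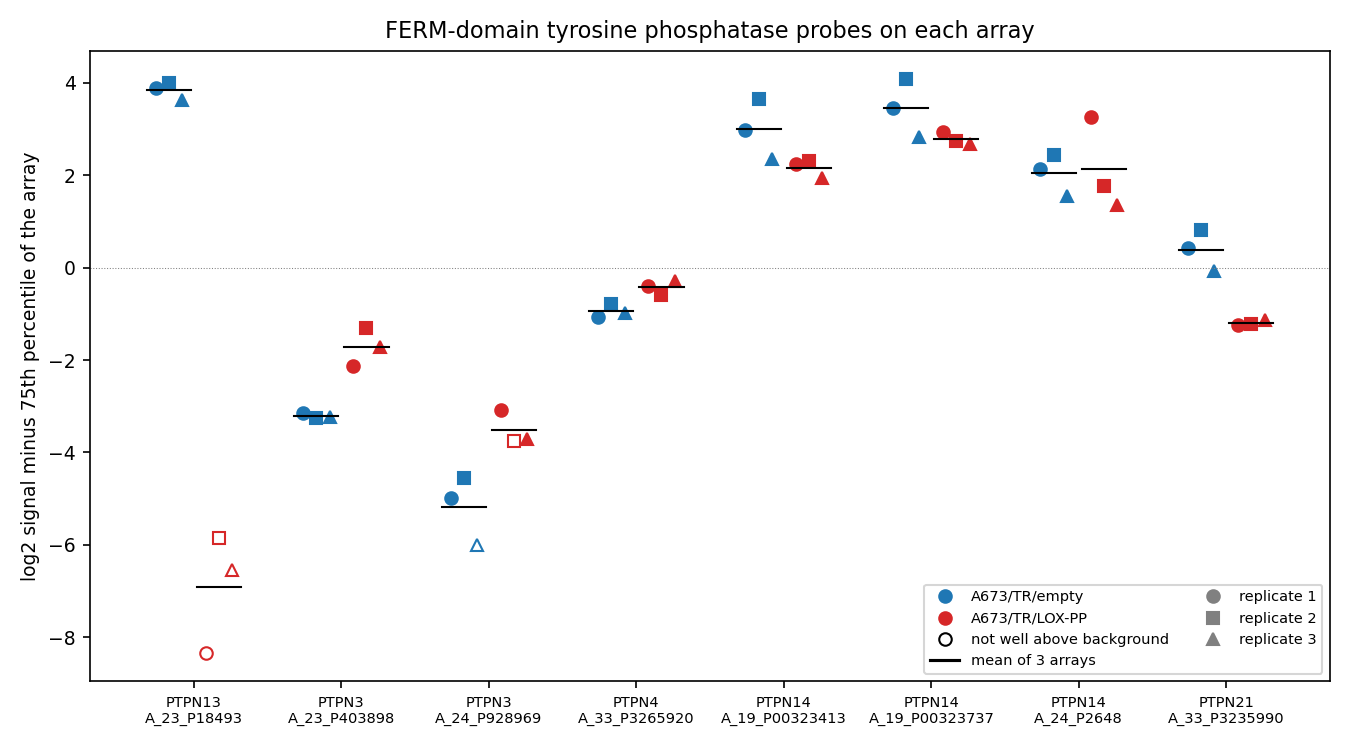
Level of each of the 8 probes on each array, as log2 signal minus the 75th percentile of the array (vertical axis), with control arrays in blue, LOX-PP arrays in red, a symbol per replicate, open symbols for spots not well above background and a black line at the mean of 3 arrays. PTPN13 runs from 3.63 to 4.01 on the control arrays and has 3 open symbols from -8.34 to -5.85 on the LOX-PP arrays, while the levels of the other 4 genes differ by far less between the groups.

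The 4 relatives did not follow PTPN13 as a group. Of their 7 probes, all of which were tested, 1 was lower (PTPN21), 1 was higher (a PTPN3 probe) and 5 did not pass the threshold of an adjusted p under 0.05 in limma. Over all tested probes 5.67% passed, 3.31% higher and 2.36% lower (1079 and 769 probes, or 910 and 984 under quantile normalization), so 2 of 7 is above the background share, though on very few probes. On the scaled levels the groups did not overlap for 5 of the 7 probes, against 29.5% of all tested probes. Changes are given relative to the median change over all tested probes, which was 0.13 on the log2 scale, whereas the p-values refer to the difference before this step.

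PTPN21, a phosphatase known to bind the tyrosine kinases SRC and BMX and the mitochondrial anchor protein AKAP1, moved in the same direction as PTPN13. Its level was 0.42, 0.82 and -0.06 in control cells and -1.25, -1.22 and -1.13 in LOX-PP cells. The LOX-PP arrays lay together and below every control array. The change was -1.72 (SE 0.27, 95% interval -2.36 to -1.07), a 3.28-fold lower level, with an adjusted p of 0.0223 in limma. The 6 values were all well above background, with signals of 5938 to 11050 in control cells and 1197 to 2682 in LOX-PP cells. The direction held under all 17 other settings, some of which repeat one another, with adjusted p rising to as much as 0.127 in limma. The call was lost without control replicate 1 (adjusted p = 0.127), control replicate 2 (0.0964), LOX-PP replicate 2 (0.0679) or LOX-PP replicate 3 (0.0603).

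PTPN3, a phosphatase known to act on the MAP kinase p38 gamma (MAPK12) and on the AAA ATPase VCP, moved the other way. Its brighter probe (A_23_P403898) stood at -3.14, -3.25 and -3.23 in control cells and at -2.13, -1.31 and -1.72 in LOX-PP cells. All LOX-PP arrays were above all control arrays, and the control arrays differed by very little. The change was 1.36 (SE 0.26, 95% interval 0.74 to 1.98), a 2.57-fold higher level, with an adjusted p of 0.0245 in limma. This difference appears once the arrays are scaled: the signals before scaling were 869, 659.6 and 659 in control cells and 652, 2522 and 1012 in LOX-PP cells, and they overlap. The call was lost without any 1 of control replicates 1, 2 and 3 (adjusted p = 0.127, 0.125 and 0.0674) and without LOX-PP replicate 2 or 3 (0.0602 and 0.0669), with the direction kept throughout.

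The second PTPN3 probe (A_24_P928969) was dim. It read -4.99, -4.55 and -6.01 in control cells and -3.08, -3.75 and -3.72 in LOX-PP cells, with 2 of 3 arrays well above background in each group. The groups did not overlap after scaling. The signals before scaling overlap, at 240, 267 and 96.4 in control cells and 336, 465 and 253 in LOX-PP cells. The change of this probe, 1.54 (SE 0.41), missed the threshold (adjusted p = 0.0673, limma). The ratio between the 2 PTPN3 probes did not differ between the groups beyond its spread (exact permutation test, two-sided, p = 0.8, where 3 against 3 arrays cannot go below 0.1).

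PTPN4, the closest relative of PTPN3 and a phosphatase known to bind glutamate receptor subunits, differed little. Its level was -1.06, -0.79 and -0.98 in control cells and -0.39, -0.59 and -0.29 in LOX-PP cells, so the groups did not overlap after scaling. The signals before scaling overlap, at 3658, 3627 and 3136 in control cells and 2170, 4155 and 2729 in LOX-PP cells. The change of 0.40 (SE 0.21, 95% interval -0.10 to 0.89) missed the threshold (adjusted p = 0.214, limma), and the interval leaves room for anything from no rise to one of 0.89.

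None of the 3 probes of PTPN14 passed the threshold. A_19_P00323413 read 2.97, 3.66 and 2.35 in control cells and 2.24, 2.31 and 1.95 in LOX-PP cells, a change of -0.95 (SE 0.35, adjusted p = 0.240, limma). A_19_P00323737 read 3.46, 4.08 and 2.82 against 2.94, 2.75 and 2.69, a change of -0.78 (SE 0.34, adjusted p = 0.314, limma). For the first of these the groups did not overlap, and for the second they did. The third, A_24_P2648, read 2.13, 2.44 and 1.55 in control cells and 3.27, 1.77 and 1.35 in LOX-PP cells, a change of -0.035 (SE 0.52, 95% interval -1.26 to 1.19, adjusted p = 0.945, limma) whose sign turned under quantile normalization (0.22). Its highest value was on LOX-PP replicate 1, an array on which the other PTPN14 probes were not raised above the control arrays, and without that array its change was -0.64.

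The ratio of A_19_P00323413 to A_24_P2648, which needs no scaling between arrays, was 0.84, 1.22 and 0.79 on the log2 scale in control cells and -1.03, 0.54 and 0.60 in LOX-PP cells. These groups did not overlap, and the exact permutation test gave p = 0.1, the smallest 3 against 3 arrays can give (0.4 after Benjamini-Hochberg adjustment over 4 probe pairs of PTPN14 and PTPN3). The other PTPN14 ratios had an exact permutation p of 0.3 each. A difference between the probes was thus not shown, and the files do not say which transcript forms each probe covers.

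**Figure D2:**
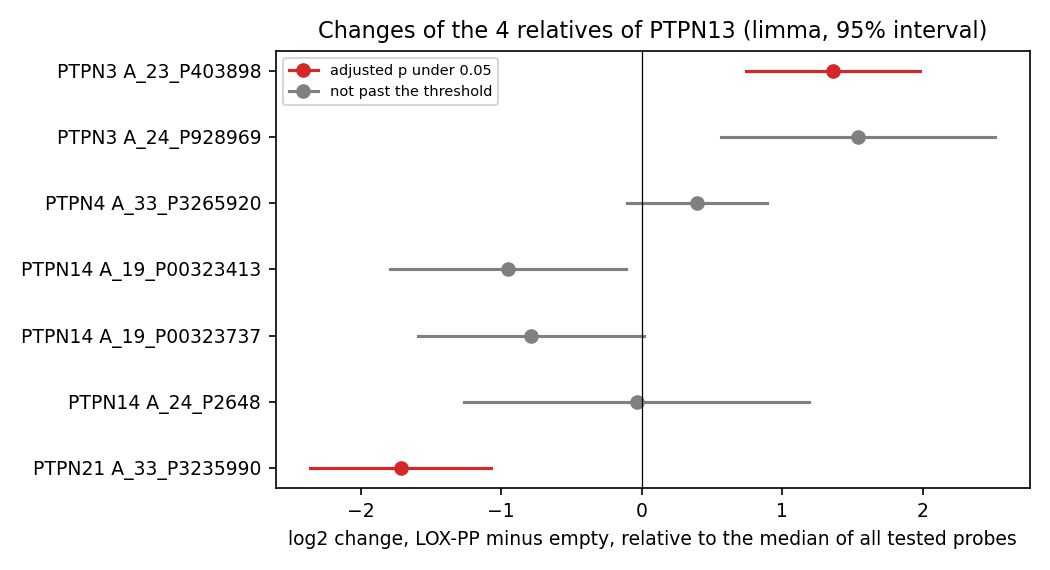
Change of the 7 probes of PTPN3, PTPN4, PTPN14 and PTPN21 on the log2 scale, LOX-PP minus empty, relative to the median of all tested probes, with the 95% interval of the limma fit, which is not adjusted for the number of probes. The red points, with an adjusted p under 0.05, are a PTPN3 probe at 1.36 and PTPN21 at -1.72, and the 5 grey points did not pass the threshold.

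The 3 nearest protein-coding genes on each side of PTPN13 on chromosome 4 were read in the same way, each against its own control level. The nearest protein-coding gene on the side of the PTPN13 start is MAPK10, which encodes the JNK3 kinase and is read from the other strand and away from PTPN13, its annotated start falling inside the PTPN13 window printed above. Its brighter probe (A_23_P45025) read -3.12, -3.55 and -2.95 in control cells and -6.04, -3.62 and -4.67 in LOX-PP cells, where none of the 3 spots was well above background. The measured means were -3.21 ± 0.31 and -4.78 ± 1.22 (SD, n = 3). With LOX-PP spots raised to at least the lowest signal well above background on their array, the level was 2.84-fold lower in LOX-PP cells. That is no firm bound, since control replicate 2 (-3.55) and LOX-PP replicate 2 (-3.62) were nearly alike. The fit missed the threshold (adjusted p = 0.181, limma), except under quantile normalization (0.0259). The probe entered the tested set through the control arrays alone, so these p-values rest on unmeasured LOX-PP values and decide nothing in either direction. The fitted change was -1.70, and -0.83 with normexp or -0.52 with a common floor. The second MAPK10 probe was well above background on 1 array in all and was not tested.

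On the other side of PTPN13, C4orf36 was lower in LOX-PP cells. It read -2.17, -2.53 and -2.02 in control cells and -4.95, -3.93 and -4.10 in LOX-PP cells, 2 of these 3 well above background. The groups were clearly apart, with a change of -2.21 (SE 0.33) and an adjusted p of 0.0167 in limma. The call was lost without control replicate 1 (adjusted p = 0.0969) or control replicate 2 (0.0651), with no filter (0.0687) and with the methods' t-test (0.085), and the change was -1.54 with normexp and -1.52 with a common floor. Between it and PTPN13 lies SLC10A6, a carrier of sulphated steroids, whose probe was well above background on a single LOX-PP array and was not tested, as was the case for ARHGAP24 on a single control array. The outer neighbours, WDFY3, an adaptor of selective autophagy (-0.57, adjusted p = 0.335, limma), and AFF1, a scaffold of the super elongation complex (-0.15 and 0.41 for its 2 probes, adjusted p = 0.971 and 0.634), did not pass the threshold. Of the 5 tested probes around PTPN13, 1 was thus lower, against 2.36% of all tested probes, though on very few probes.

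Around the 4 relatives none of 23 tested probes of the 24 neighbouring genes looked up passed the threshold in limma, against 5.67% of all tested probes. Of the 23, 5 had an unadjusted p under 0.05, against 21.3% of all tested probes, so both counts are near the background. The changes of the 23 probes ran from -0.88 (SMYD2, a lysine methyltransferase gene beside PTPN14, adjusted p = 0.0874, limma) to 1.02 (a probe of SPATA7, beside PTPN21, adjusted p = 0.203).

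**Figure D3:**
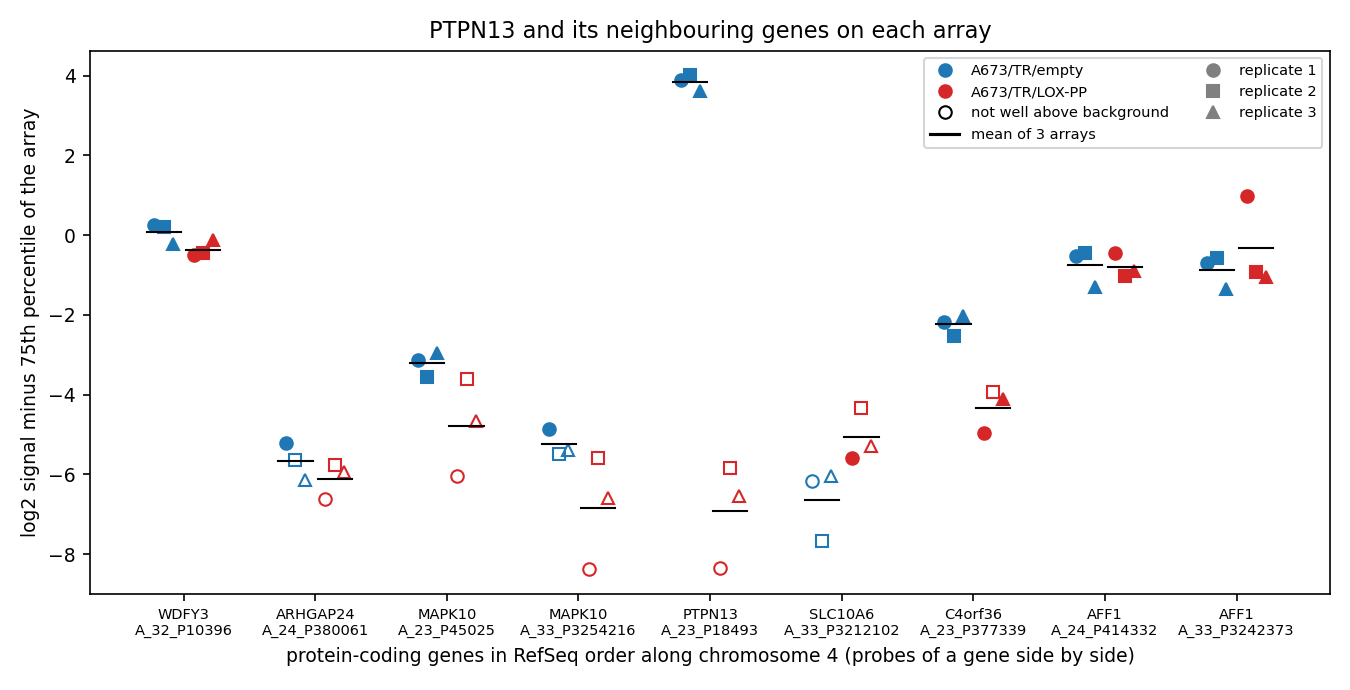
Level of PTPN13 and of the 3 nearest protein-coding genes on each side, in their order along chromosome 4 with the probes of a gene side by side, as log2 signal minus the 75th percentile of the array, with the symbols of the plot of all members. PTPN13 and the brighter MAPK10 probe have only open symbols, not well above background, on the LOX-PP arrays, C4orf36 falls from a mean of -2.24 to -4.33, and the AFF1 and WDFY3 probes stay between -1.35 and 0.98.

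Of the 19 known partners and substrates of PTPN13 on a list written for this purpose, 17 were well above background on all 6 arrays. Of the 18 tested, 0 passed the threshold in limma, where 5.67% of all tested probes did, and 4 had an unadjusted p under 0.05, where 21.3% of all tested probes did. These counts are near the background, and 0 passed with the methods' t-test after adjustment. Their median change was 0.11. FAS, the death receptor whose tail PTPN13 binds, had a level of 2.60 ± 0.35 in control cells and 2.75 ± 0.39 in LOX-PP cells (SD, n = 3), a change of 0.018 (adjusted p = 0.823, limma) whose sign turned in 5 of 17 other settings. EFNB1, an ephrin ligand that PTPN13 is known to dephosphorylate, changed by 0.26 (adjusted p = 0.493), NFKBIA, the inhibitor of NF-kB, by -0.0094 (0.815), and the kinase PKN2 by 0.27 (0.501). None of these differed beyond the spread between arrays. NGFR, the p75 neurotrophin receptor, was at 1.93 ± 0.23 and 2.77 ± 0.57 (SD, n = 3), a change of 0.71 (adjusted p = 0.203, limma). The PDZ and LIM domain gene PDLIM4 had a change of 1.63 (adjusted p = 0.0981), which passed without control replicate 3 (0.0141). The other 2 genes with an unadjusted p under 0.05 were lower: MAPK10, which is also on this list and whose values stand above, and PTK2, the focal adhesion kinase, with a change of -0.89 (adjusted p = 0.164, limma) and groups that did not overlap. The p-value of MAPK10 rests on LOX-PP spots not well above background.

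The partners of the relatives gave 0 calls of 17 tested genes, from a list of 20, in limma, likewise beside 5.67% of all tested probes, with 2 at an unadjusted p under 0.05, 0 with the methods' t-test after adjustment and a median change of -0.14. YAP1, the Hippo pathway coactivator that PTPN14 binds, read 2.73 ± 0.15 in control cells and 2.29 ± 0.31 in LOX-PP cells (SD, n = 3), a change of -0.57 (adjusted p = 0.333, limma). WWC1 (KIBRA), a partner of PTPN14, changed by 0.13 (adjusted p = 0.629), MAPK12 by -0.66 (0.625) and AKAP1 by -0.39 (0.548). The lowest adjusted p on the list was that of LATS2, a Hippo kinase, with a change of -1.31 (adjusted p = 0.0663), which passed when only probes above background on all arrays of a group were tested (0.0471).

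Other classical tyrosine phosphatases, without a FERM domain, changed in either direction. Of 32 genes 27 were tested, and 2 were higher and 1 lower in LOX-PP cells, or 11.1% of those tested against 5.67% of all tested probes, with a median change of -0.052. Each gene stands for its brightest probe: PTPRK, a receptor phosphatase, did not pass by it (-0.052), while its 2 other probes did (1.16 and 0.87, adjusted p = 0.0221 and 0.038, limma). PTPN7, a phosphatase of ERK and p38 known from blood cells, read -3.89, -4.25 and -3.55 in control cells and -0.68, -0.55 and -1.67 in LOX-PP cells. It was higher on every LOX-PP array, by 2.81 (SE 0.36, adjusted p = 0.00728, limma), a call lost among the other settings with the methods' t-test alone (0.0654), and the change was 2.17 with normexp. The leukocyte marker PTPRC, itself a phosphatase of this list, was at -2.95 ± 0.17 and -2.77 ± 0.81 (SD, n = 3) by its brightest probe, a change of 0.055 (adjusted p = 0.839, limma). Its other probes were at background: A_33_P3364811 and A_33_P3364821 were not well above it on any array, and A_33_P3309526 on 1 LOX-PP array alone. Whether the gene is expressed is thus not settled.

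PTPRO, a receptor phosphatase known from kidney podocytes, was the one that fell. It read -2.48, -2.48 and -2.54 in control cells and -5.67, -5.76 and -5.86 in LOX-PP cells, 1 of the latter well above background, a change of -3.39 (SE 0.19, adjusted p = 0.000603, limma). The probe met the filter through the 3 control arrays, where it was high. The small spread of its LOX-PP values is mostly that of spots not well above background. Its p-value is therefore no measure of support, and neither is its passing under all 16 other settings in which it was tested. Its size did not hold: it was -1.65 with normexp and -1.26 with a common floor. PTPRH, a receptor phosphatase of epithelia, was dim, with 1 control array and 2 LOX-PP arrays well above background. Its change of 1.78 (adjusted p = 0.0201, limma) did not pass in 8 of 15 other settings, among them quantile normalization (0.179) and a common floor under all arrays (a change of 0.14, adjusted p = 0.425), and the absence of control replicate 1 (0.118), control replicate 2 (0.109) or LOX-PP replicate 3 (0.0575).

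**Figure D4:**
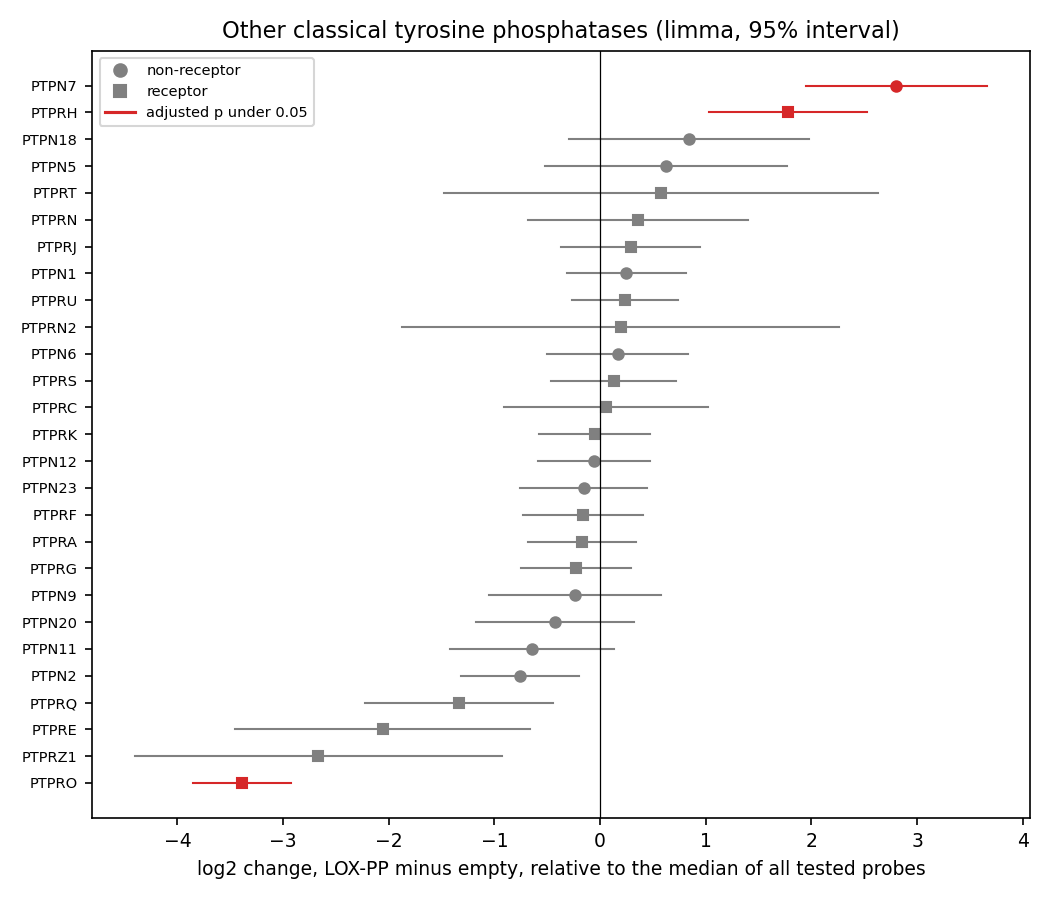
Change of 27 classical tyrosine phosphatase genes without a FERM domain, 1 probe per gene, on the log2 scale, LOX-PP minus empty, relative to the median of all tested probes, with the unadjusted 95% interval of the limma fit; circles are non-receptor and squares receptor phosphatases. PTPN7 (2.81) and PTPRH (1.78) stand at the top and PTPRO (-3.39) at the bottom in red, and the intervals of most of the other genes include 0.

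Proteins that share the FERM domain but have no phosphatase domain were examined in the same way. Of 48 genes 39 were tested, 3 were higher and 2 lower, or 12.8% of those tested against 5.67% of all tested probes (3.31% higher and 2.36% lower), with a median change of -0.062. PLEKHH2, an actin-binding FERM protein known from podocytes, was higher by 2.02 (SE 0.26, adjusted p = 0.00637, limma), at -4.83 ± 0.22 and -2.68 ± 0.32 (SD, n = 3). Its change was 0.95 with a common floor (adjusted p = 0.0475) and 1.44 with normexp. The kinase JAK3 was higher by 1.57 (adjusted p = 0.0446) and EPB41, the band 4.1 protein of the membrane skeleton, by 1.03 (0.0279), and a second EPB41 probe gave 1.09 (0.0461). A second JAK3 probe gave 0.75 (adjusted p = 0.111), and the JAK3 call was lost in 12 of 17 other settings, quantile normalization (0.0911) and normexp (0.0502) among them. EPB41L1, another band 4.1 protein, was represented by a probe that did not pass (1.13, adjusted p = 0.124, limma), while its probe A_24_P185709 did (1.96, adjusted p = 0.0281). The latter was dim, well above background on 1 control array and 2 LOX-PP arrays. Another EPB41L1 probe, A_33_P3228510, went the other way and did not pass (-1.45, adjusted p = 0.524, limma). FARP1, a guanine nucleotide exchange factor, had a change of -1.56 (adjusted p = 0.016, limma). Of its other probes, A_33_P3238856 passed (-1.17, adjusted p = 0.0394, limma) and A_33_P3388331 did not (-0.89, adjusted p = 0.174). FERMT1 (kindlin-1), an activator of integrins, had a change of -2.05 (adjusted p = 0.0203, limma), at -1.82 ± 0.34 and -3.74 ± 0.48 (SD, n = 3). These calls rested on few arrays: without control replicate 1 none of the 5 passed, and without control replicate 2 or LOX-PP replicate 3 only 1 did (PLEKHH2), and without control replicate 3 the list gave 3 calls.

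The 5 named genes whose levels over the 6 arrays were most correlated with PTPN13 were CPAP, SOCS2, HPDL, ME3 and ARMCX1. Pearson's r over 6 arrays was 0.998 for ARMCX1 and 0.999 for each of the others, which describes 6 points in 2 groups of 3 arrays. The 5 were picked by their likeness to this contrast between the groups, so their changes are a description and carry no test. CPAP, a centriole protein, changed little in size, by -0.99, and SOCS2, a suppressor of cytokine signalling, by -2.69. HPDL, a mitochondrial dioxygenase, changed by -5.60, a size with little precision since it was well above background on 1 LOX-PP array alone. ME3, the mitochondrial malic enzyme, changed by -3.62. ARMCX1, an armadillo-repeat protein of the mitochondrial outer membrane, was like PTPN13 below the background flag on all 3 LOX-PP arrays. On the same basis as for PTPN13 it was at least 74.7-fold lower there. Because the LOX-PP values of PTPN13 are at background, this order of likeness has little precision.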

How the data were processed

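Total RNA was labelled with Cy3 and hybridised to 6 one-colour Agilent arrays. Spot intensity values deposited by the authors come from Agilent Feature Extraction (version 10.7 per the labels), corrected for background, with quality flags, and a table of processed log2 values. On every probe these equal log2 of the corrected intensity minus the 75th percentile of the array, centred on the probe's median, within 0.00537. The build of the array design is not given in the sources used here.

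Control spots and outlier spots (213 to 353 per array, none of a member) were left out, spots of a probe were averaged on the log2 scale and the 75th percentile was subtracted. A probe was tested if it stood well above background on 3 or more of the 6 arrays (32609 did). The groups were compared with limma 3.58.1 (R 4.3.3) with no blocking factor, and the threshold was 0.05 for p-values adjusted by Benjamini-Hochberg over these probes. A gene of a list was represented by its probe with the highest mean level. Names, chromosomes and gene order came from RefSeq through transcript accessions (28174 of 50599 probes named). A probe not well above background on any array of a group was given a bound from the lowest signal well above background on each array. Where the probe's own level was higher than that signal, its own level was used. The number of arrays, 3 per group, limits the precision.

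The members and the gene lists were chosen with earlier results of these arrays known. Named are every member probe, every list gene past the threshold, or the 3 largest changes in each direction where more than 6 pass, the 10 partners FAS, NGFR, EFNB1, NFKBIA, PKN2, YAP1, WWC1, MAPK12, AKAP1 and MAPK10, the 3 nearest genes on each side of PTPN13, the 5 genes most correlated with it, and LOX. PDLIM4, PTK2, LATS2, PTPRC, PTPRK, EPB41L1, EPCAM, KRT19, SMYD2 and SPATA7 were chosen after their values were seen. Replicate numbers come from the sample titles. Deviations of same-numbered arrays correlated at 0.27, -0.39 and 0.23, so the numbers were not taken as pairs. The fit was tested on simulated arrays. Alternatives were quantile and median scaling, the authors' values, normexp (offset 50) on the median spot signal, 3 other filters, slide and replicate blocks, the methods' t-test, a common floor and leaving out each array. These are not separate checks. The slide block gave the same changes as leaving out LOX-PP replicate 1, and median scaling and the authors' values gave nearly the same changes as the main setting.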

Additional observations from a re-analysis of the deposited data

How the results depend on the processing

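The fall of PTPN13 kept its direction in every setting in which a bound could be given; the bound on the log2 scale was -7.77 with normexp and -7.54 with a common floor, and -9.27 to -7.93 when 1 array was left out. The authors' values are centred per probe and gave no bound, and the filter on all 6 arrays removed the probe. Of all probes, 516 passed with no filter, 893 with the replicate block, 569 with the methods' t-test and 407 to 2067 when 1 array was left out (407 and 444 without control replicate 1 or 2, 893 and 1045 without LOX-PP replicate 2 or 3). The cause of these shifts was not tested.

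The 2 calls among the relatives fell to 0 with no filter, 0 with the replicate block, 0 with the methods' t-test, and 0 to 2 when 1 array was left out. PTPN13 partners gave 1 call under quantile normalization (MAPK10, whose LOX-PP spots were not well above background) and 0 to 1 when 1 array was left out (PDLIM4 without control replicate 3). The partners of the relatives gave 1 call under each of the stricter filters (all 6 arrays, all arrays of a group) and 0 without any single array. Other phosphatases gave 1 call with the filter on all 6 arrays, 5 with the slide as a block, 1 with the methods' t-test and 2 to 5 when 1 array was left out (5 without LOX-PP replicate 1). Other FERM-domain proteins gave 1 call with no filter, 2 with the replicate block, 3 with the methods' t-test and 0 to 6 when 1 array was left out.

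Under the replicate block, which assumes a pairing that the deviations of the arrays do not show, PTPN21 and PTPN3 kept their changes at adjusted p of 0.066 and 0.0729 in limma, and C4orf36 had 0.0521. Control replicates 1, 2 and 3 correlated best with LOX-PP replicates 1, 1 and 2.

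Signs turned only for changes near 0 in the main setting, which does not make these changes precise (SE 0.52 for the PTPN14 probe A_24_P2648). The PTPN14 probe A_24_P2648 had 0.22 under quantile normalization, 0.022 with the filter on all 6 arrays, 0.029 with a common floor and -0.64 to 0.35 when 1 array was left out. FAS had -0.089 with normexp, -0.16 with no filter and -0.13 to 0.20 when 1 array was left out. WWC1 had -0.046 with no filter, -0.076 with the slide as a block and -0.076 to 0.37 when 1 array was left out. NFKBIA had 0.19 under quantile normalization, 0.048 with the filter on all 6 arrays, 0.026 with that on a group, 0.026 with the slide as a block, 0.055 with a common floor and -0.15 to 0.12 when 1 array was left out.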
